A study of Mus musculus with 6 samples.

Results

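CTCF sites were examined around 10 genes of the naive pluripotency network, namely Pou5f1, Nanog, Sox2, Klf4, Klf2, Esrrb, Tfcp2l1, Prdm14, Zfp42 and Tbx3. A CTCF region was taken as a member when it overlapped one of these genes or lay within 100 kb of it in the mouse build mm9. This gave 199 of the 57662 regions formed by joining the peaks of 4 CTCF chromatin immunoprecipitation (ChIP-seq) libraries. No region was shared between the 10 genes. The annotation lists Tfcp2l1 under its older symbol, Tcfcp2l1.

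The libraries came from mouse embryonic stem cells, which are pluripotent cells of the early embryo, kept in serum with LIF. In every library the cells' own CTCF carried a degron tag and was degraded with auxin, and an introduced CTCF stood in its place. In WT_CTCF cells this was the wild-type protein. In MUT_CTCF cells threonine 668 was changed to alanine, so that the sugar O-GlcNAc could not be added there. Each genotype had 2 ChIP libraries, described as biological replicates, and 1 input library that was not analysed here. The lines were picked clones with a CTCF level close to that of the endogenous protein, so genotype and clone cannot be told apart. The files hold CTCF binding and no expression, so the labelled cell type could not be checked against marker genes.

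The deposited files give a pair of readouts. A peak list for each library says where a peak was called and gives it a score and a summit, and a table of the joined regions gives the authors' mean of spike-in scaled read counts over the 4 libraries. The score was set by the peak caller and its definition is not given in the sources used here. Neither a call nor a score is an amount of reads. The authors compared the scaled counts between genotypes themselves, and that comparison was not used here. A lower score or a missing call in MUT_CTCF is therefore not a statement that less CTCF was bound, and the scaled counts may differ between genotypes in the other direction.

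CTCF recognises an asymmetric DNA motif with its zinc fingers and stops the cohesin complex as it extrudes chromatin loops. Loops form mostly between sites whose motifs point towards each other, and such sites bound the domains in which enhancers reach promoters. Pou5f1 (OCT4), Sox2 and Nanog encode the core transcription factors of pluripotency. Klf4, Klf2, Esrrb, Tfcp2l1, Prdm14 and Tbx3 encode factors that hold mouse cells in the naive state, and Zfp42 (REX1) is a widely used marker of that state.

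The motif was searched first, because its letters carry both the identity and the direction of a site. A match to the 13-base CTCF core motif with at most 1 mismatch, on either strand, was present in 100 of the 199 regions (50.3%). The share was 60.6% over all regions and 4.44% in control intervals of equal width 5000 bp to either side. Without mismatch the motif was found in 15 regions (7.54%), against 12.7% of all regions. Below, each match is printed in capitals between 8 flanking bases in lower case, 5′ to 3′ on the strand that matched, from the mm9 reference. A plus match reads along the chromosome and a minus match against it. The place and distance printed with a match are those of its whole region. Whether the match itself lies in an exon or an intron was not examined.

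The site with the highest authors' mean at each gene is shown where it held a match, together with the promoter site of Sox2 and the second strongest site of Prdm14, whose strongest had no match. The motif was complete in 4 of these 8 sites, at Pou5f1, Sox2, Tfcp2l1 and Prdm14.
Pou5f1, 72396 bp downstream of the start, plus strand: gagtttcaCCACTAGAGGGCAgactctgc
Nanog, 37867 bp upstream, plus strand: acagtccaCCAACAGGGGGCGttatttcc
Sox2, promoter, 2052 bp upstream, plus strand: caagtccaCCAGCAGGGGGCGcagcagcc
Klf2, 57437 bp upstream, plus strand: aactgtgaCCACTAGGGGACAcacttggg
Esrrb, intron, 147362 bp downstream, plus strand: taaggaaaCCAGAAGAGGGCGtcatcccc
Tfcp2l1, 144572 bp downstream, minus strand: tgtaattaCCAGCAGAGGGCGccggagca
Prdm14, 76870 bp downstream, plus strand: agacatttCCAGCAGAGGGCGcttcggtg
Tbx3, 42365 bp downstream, minus strand: gctcatggCCACGAGGGGGCAgcagagcc

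A single string accounted for most of the other matches. Of the 100 best matches, 58 began with the same 12 bases, CCAGAAGAGGGC, and this choice was made after the matches were seen. The full match was CCAGAAGAGGGCA in 42 regions and CCAGAAGAGGGCG in 16. The likeness ran past the motif into both flanks. The commonest base at each position, carried by at least 46.6% of the 58, is shown with copies from 5 regions at the genes themselves. Exon or intron names what the region touches, so the copies need not be coding sequence.
Commonest bases in 58 regions: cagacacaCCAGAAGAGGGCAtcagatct
Pou5f1 intron, 2475 bp downstream of the start, plus strand: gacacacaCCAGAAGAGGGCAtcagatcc
Nanog intron, 2941 bp downstream, minus strand: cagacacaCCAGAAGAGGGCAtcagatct
Nanog intron, 3772 bp downstream, plus strand: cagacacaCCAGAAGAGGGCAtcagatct
Nanog coding exon, 4477 bp downstream, plus strand: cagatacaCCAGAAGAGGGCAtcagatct
Nanog last exon, 6210 bp downstream, plus strand: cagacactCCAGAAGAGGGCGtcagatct

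The B2 short interspersed element, an abundant rodent repeat, is known to carry a CTCF motif and to have spread CTCF sites through the mouse genome, and its consensus holds this string. No repeat annotation was used here, so copies of the element were not counted, and the authors had removed reads that aligned to several places. Anywhere in the region and on either strand, the 12 bases were present in 62 of the 199 regions (31.2%), against 23.3% of all regions and 2.18% of control intervals. Nanog had 14 such regions and Pou5f1 had 13, whereas Klf4 had 0 among its 5 regions. Another set of near copies lay upstream of Pou5f1, where 3 regions 85390, 71003 and 40235 bp from the start shared the match CCACCAGGCGGCG on the plus strand.

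Calls were then counted by the match a region held. Around the 10 genes, 25 of the 62 regions with the string (40.3%) were called in all 4 libraries, against 30 of 40 with another match only (75%) and 36 of 97 with neither (37.1%). Over all regions the shares were 41.7%, 72.9% and 39.5%. The authors' mean differed in the same way, with medians of 74.9, 285.6 and 52.5 around the 10 genes. Calls and the mean moved together here, and their separate parts were not tested. A MUT_CTCF peak was missing in 38.3% of all regions and in 89 of the 199 (44.7%), of which 47 had been called in a single WT_CTCF library. Among regions with the string it was missing in 47.5% of all and in 27 of the 62 (43.5%). At Nanog, 11 of 14 regions with the string had no MUT_CTCF peak and 2 were called in all 4 libraries, beside 4 of its 6 regions with another match.

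**Figure D1:**
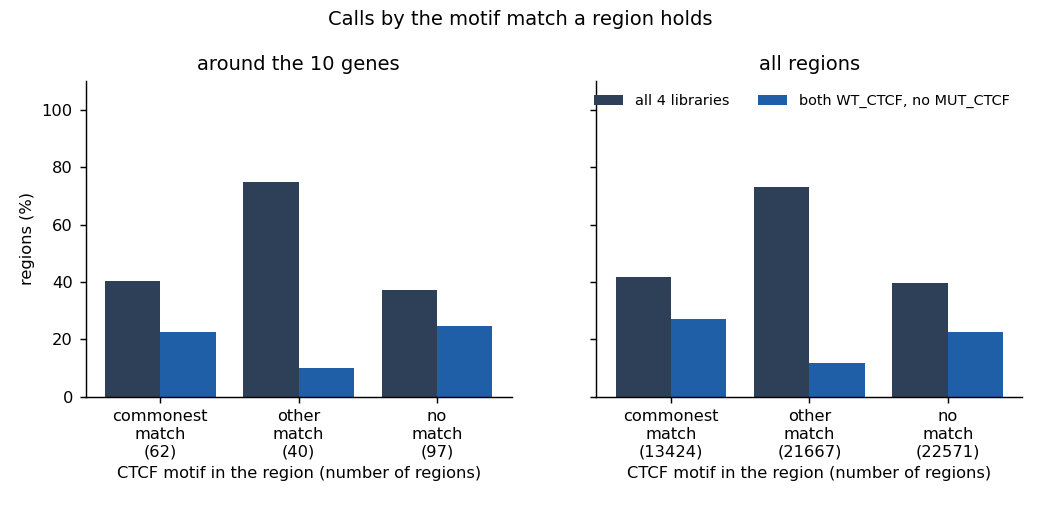
Share of regions (%, y axis) called in all 4 libraries or in both WT_CTCF and no MUT_CTCF library, by the motif match they hold, around the 10 genes (left) and over all regions (right). The bars for regions with another match stand highest for calls in all 4 libraries, at 75% and 72.9%.

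Fewer of the 199 regions had a peak in MUT_CTCF than in WT_CTCF. The WT_CTCF libraries had peaks at 165 and 183 of them, and the MUT_CTCF libraries at 102 and 99. The means were 174 ± 12.7 (SD, n = 2) and 100.5 ± 2.12 (SD, n = 2), and the groups did not overlap. The difference of -73.5 regions was larger than the replicate SDs, but with 2 libraries per group the exact two-sided permutation test cannot go below p = 0.333, which is what it gave. The ratio of the means was 0.578 around the 10 genes and 0.637 over all regions.

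By pattern, 91 regions (45.7%) were called in all 4 libraries, a pattern found in 52.6% of all regions. Another 42 (21.1%) had a peak in both WT_CTCF libraries but in no MUT_CTCF library, against 19.5% of all regions. Without WT_CTCF replicate 1, 75 regions had WT_CTCF calls alone. The opposite pattern, a call in both MUT_CTCF libraries and no WT_CTCF library, was seen at 0 of the 199 regions and at 0.033% of all regions. The shares around the 10 genes were thus near those of the whole table. The remaining 66 regions had a mixed pattern, of which 33 were called in WT_CTCF replicate 2 alone and 14 in WT_CTCF replicate 1 alone. A single region was called in a MUT_CTCF library alone, 74856 bp upstream of Zfp42 (chr8:44467141-44467298). Its score was 22 in MUT_CTCF replicate 1 and it held the common string.

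**Figure D2:**
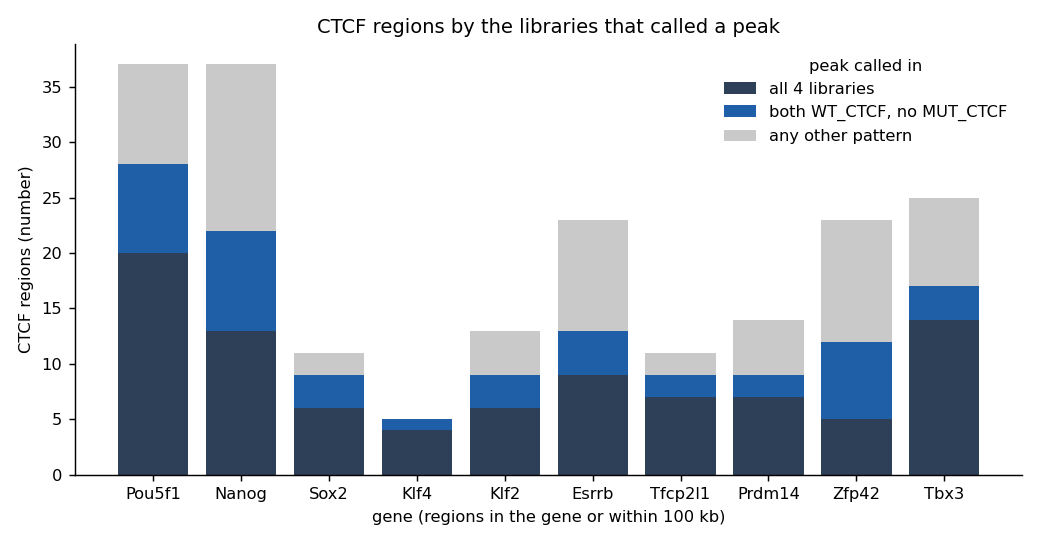
Number of CTCF regions (y axis) in each gene or within 100 kb of it, divided by the libraries that called a peak there. Pou5f1 and Nanog had 37 regions each and Klf4 had 5, and regions called in all 4 libraries ranged from 4 at Klf4 to 20 at Pou5f1.

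The number of sites varied widely between the genes. Pou5f1, whose surroundings in the major histocompatibility complex held 9 other protein-coding genes within 100 kb, and Nanog had 37 regions each. Tbx3 had 25, Esrrb and Zfp42 had 23 each, Prdm14 had 14, Klf2 had 13, Sox2 and Tfcp2l1 had 11 each and Klf4 had 5. The share called in all 4 libraries was highest at Klf4 (80%, 4 of 5) and lowest at Zfp42 (21.7%, 5 of 23). Zfp42 also had the highest share called with WT_CTCF alone (30.4%, 7 regions), and Tbx3 the lowest (12%, 3 regions). Without WT_CTCF replicate 1 these counts were 15 and 7, and without MUT_CTCF replicate 1 Tbx3 had 6.

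The regions called in all 4 libraries allowed the scores to be compared site by site. The median score over these 91 regions was 654 and 672 in WT_CTCF and 303 and 296 in MUT_CTCF. On the log2 scale the library medians differed by -1.15, a factor of 0.452 (p = 0.333 by exact permutation, again the smallest possible). Both WT_CTCF scores lay above both MUT_CTCF scores in 89 of the 91 regions, against 96.2% of such regions in the whole table. Both MUT_CTCF scores lay above both WT_CTCF scores in 0 of the 91, against 0.221%. The median ratio of mean scores, MUT_CTCF over WT_CTCF, was 0.457 per region here and 0.442 over all regions, so this difference was not particular to the 10 genes.

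**Figure D3:**
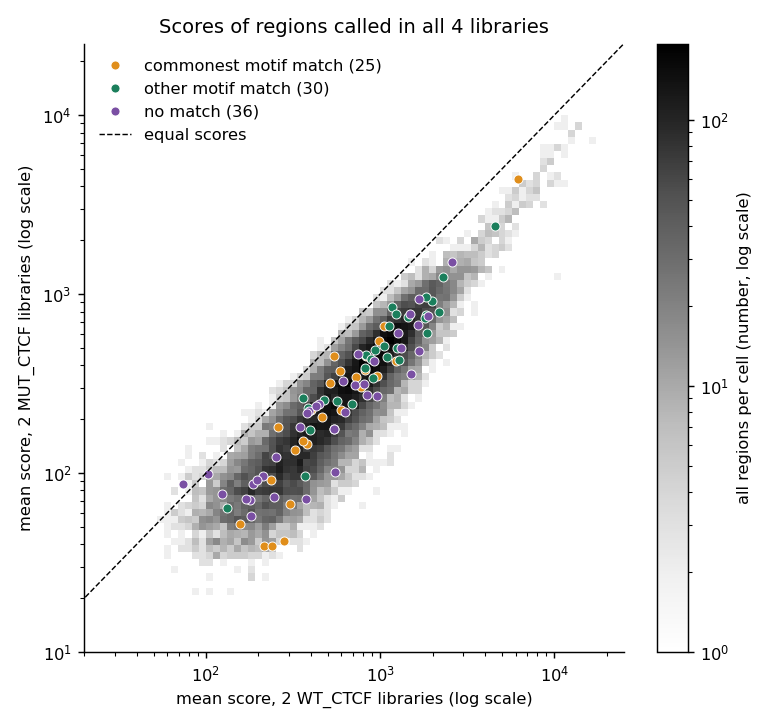
Mean score in the 2 MUT_CTCF libraries (y axis, log scale) against the mean score in the 2 WT_CTCF libraries (x axis, log scale) for regions called in all 4 libraries, with the 91 regions around the 10 genes as coloured points and all regions as grey cells. The points lie within the grey cloud and all but 1 lie below the line of equal scores.

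Peaks were also narrower in the MUT_CTCF lists, while their summits stayed within 100 bp. The median width over the 91 regions was 584 and 601 bp in WT_CTCF and 399 and 402 bp in MUT_CTCF, a difference of -192 bp (p = 0.333 by exact permutation, again the smallest possible). Over all regions called in all 4 libraries the difference was -146.5 bp. The summits of the groups lay a median of 9.5 bp apart, beside 6 bp between the replicates of either group. The largest distance between the groups was 47.5 bp. Where a motif was present, 94.5% to 98.2% of summits, depending on the library, fell within 50 bp of a match.

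**Figure D4:**
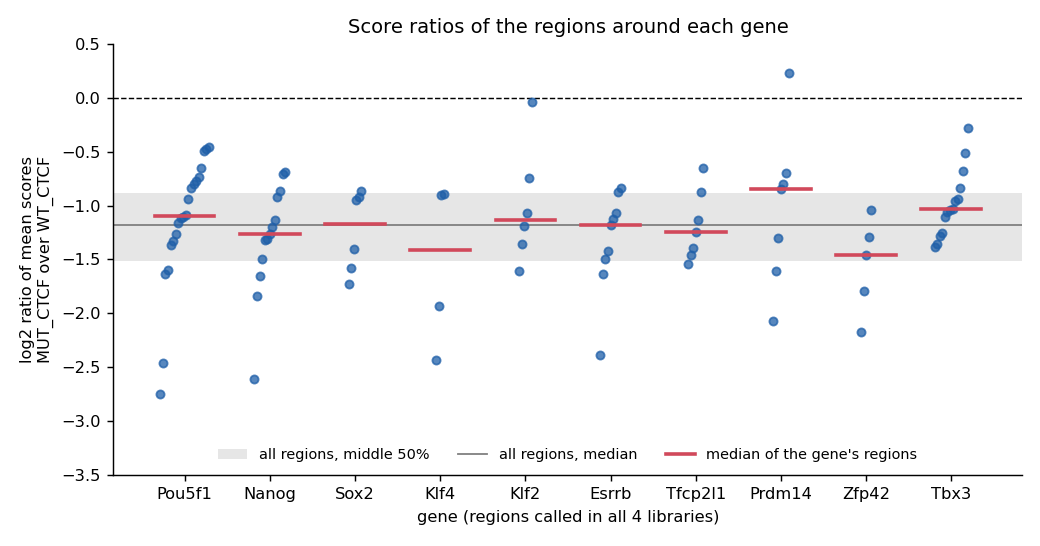
log2 ratio of mean scores, MUT_CTCF over WT_CTCF (y axis), for each region called in all 4 libraries (points), by gene, with the median of each gene (red bar) and the median and middle 50% of all regions (grey). Gene medians run from a ratio of 0.363 at Zfp42 to 0.555 at Prdm14 under the overlap rule plotted. With a reciprocal overlap of 50%, which left fewer regions, Prdm14 had the lowest library-median difference (-2.08 on the log2 scale). The point above 0 is the Prdm14 intron.

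A score ratio was given only to regions called in all 4 libraries, so regions that lacked a MUT_CTCF peak are left out. Gene medians of the score ratio ranged from 0.363 at Zfp42 (5 of 23 regions) to 0.555 at Prdm14 (7 of 14 regions). Between them came Klf4 (0.375), Nanog (0.416), Tfcp2l1 (0.421), Esrrb (0.442), Sox2 (0.443), Klf2 (0.457), Pou5f1 (0.468) and Tbx3 (0.487). Ratios within a gene spread more widely than these medians, from 0.149 to 0.727 at Pou5f1, and neighbouring genes in this order did not differ beyond that spread. The order also turned over with the measure. With a reciprocal overlap of 50%, Prdm14 had the lowest difference of library median log2 scores of the 10 genes, -2.08 against -0.70 with any overlap. That rule left 59 of the 91 regions, so the values rest on different sets of regions. How many of the 7 Prdm14 regions remained was not counted, and the value may rest on very few. By the difference of library medians with any overlap, Klf4 was the lowest at -1.59 and Zfp42 stood at -1.33.

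The loci are described one by one, beginning with the core factors.

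**Figure D5:**
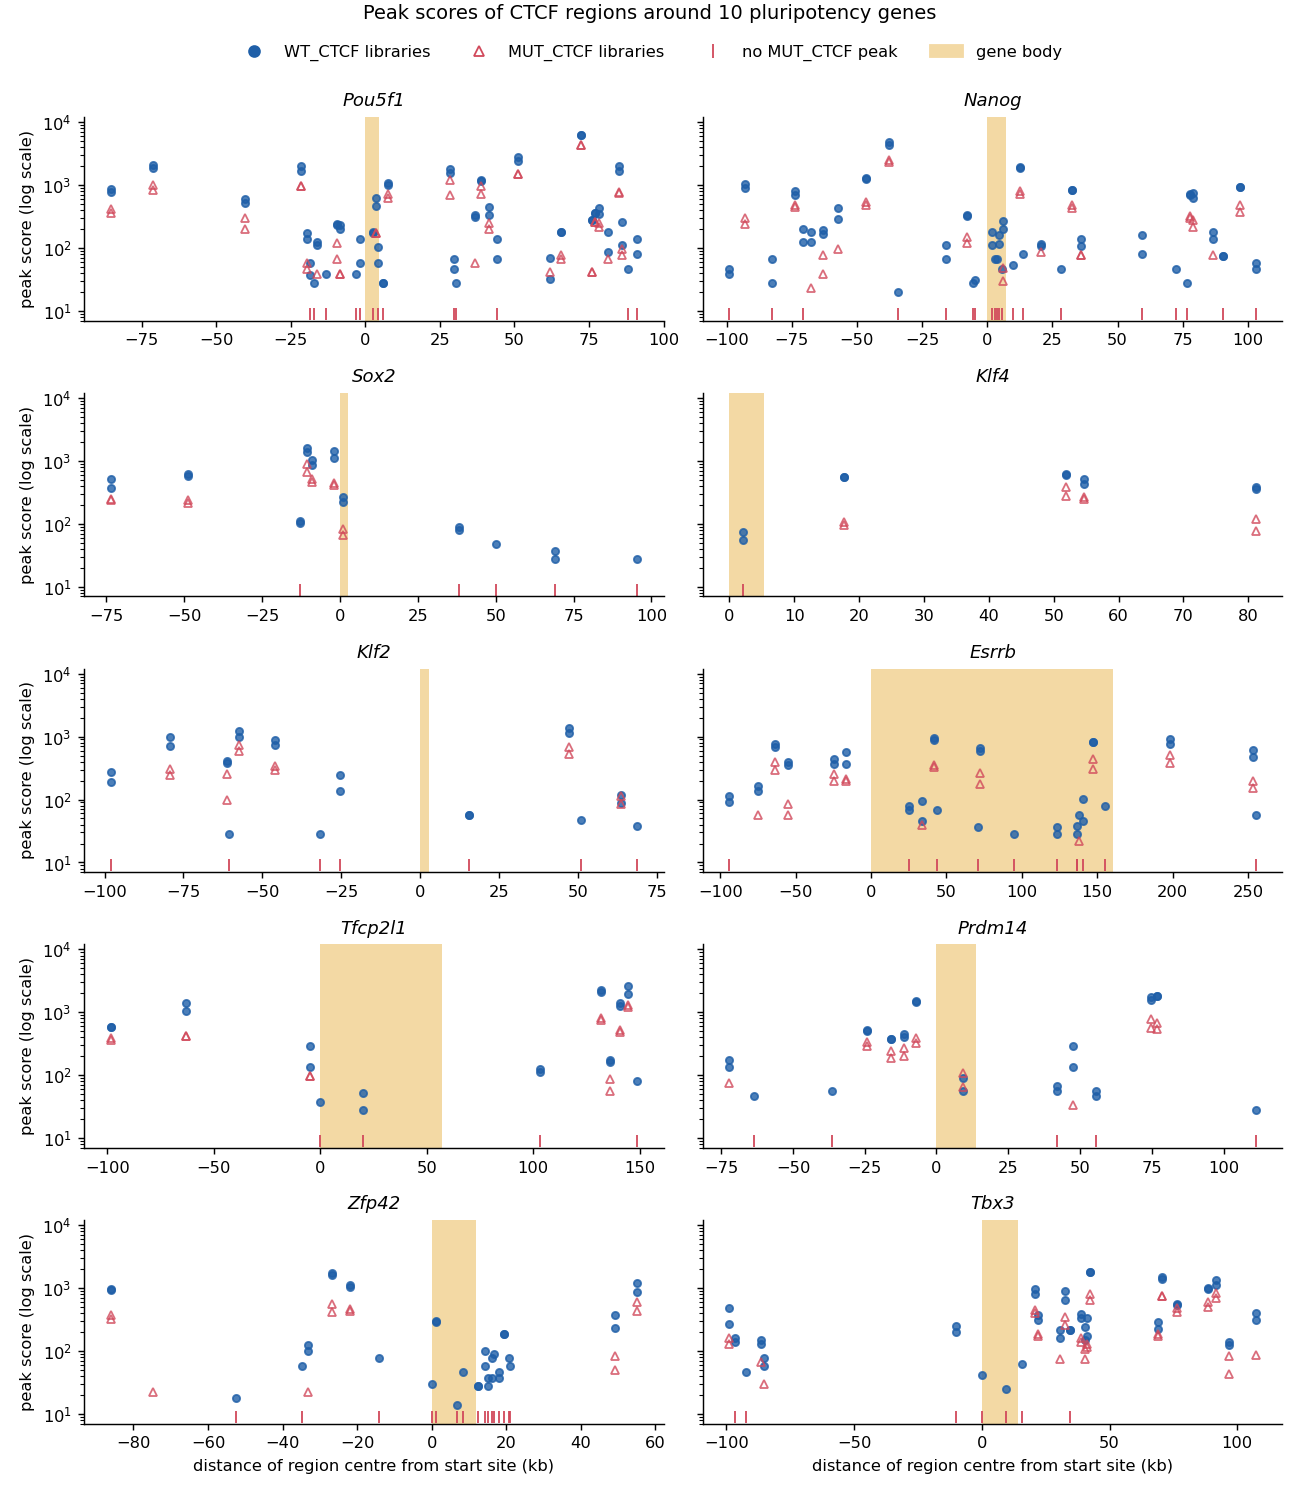
Peak score (y axis, log scale) of each region against the distance of its centre from the gene's start in the direction of transcription (x axis, kb), with 1 panel per gene. Filled circles are the 2 WT_CTCF libraries, open triangles the 2 MUT_CTCF libraries, red ticks mark regions without a MUT_CTCF peak and the shaded band is the gene body. At Nanog and Zfp42 the ticks crowd at or near the gene, and at Tbx3 the sites with triangles crowd downstream.

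Pou5f1 encodes OCT4, a POU factor without which pluripotent cells are lost. The gene (chr17:35642982-35647721, plus strand) had 5 regions in its body or in the 3000 bp upstream of its start, of which 1 was called in all 4 libraries. That region covered a coding exon (chr17:35646259-35647074) and scored 471 and 620 in WT_CTCF and 176 and 175 in MUT_CTCF. Both MUT_CTCF values were the lower, at a ratio of 0.322. Its match, ccacttctCCAGCAGGGGCCGcagcttac, lay on the minus strand. The other 4 had no MUT_CTCF peak, and 3 of them were called in both WT_CTCF libraries. The region nearest the start, 1877 bp upstream (chr17:35640942-35641269), scored 57 and 138 in WT_CTCF and held no motif match.

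The site with the highest authors' mean of all 199 lay 72396 bp downstream of the Pou5f1 start (chr17:35714893-35715863), with an authors' mean of 1427.5. It scored 6140 and 6190 in WT_CTCF and 4360 and 4404 in MUT_CTCF, so replicates differed far less than genotypes and the ratio was 0.711. Further out the picture differed. The region at 76127 bp (chr17:35718874-35719344) had the lowest ratio of the 91, 0.149, from scores of 279 and 279 in WT_CTCF and 42 and 41 in MUT_CTCF. Its neighbour at 76959 bp (chr17:35719715-35720167) had a ratio of 0.727, from 362 and 362 in WT_CTCF and 263 and 263 in MUT_CTCF. These neighbours were both called in all 4 libraries, and their ratios are the lowest and the highest of the Pou5f1 range. Their matches point in opposite directions.
Pou5f1, 76127 bp downstream, minus strand: cagacccaCCAGAAGAGGGCAccagatct
Pou5f1, 76959 bp downstream, plus strand: actgctggCCACAAGAGGGCAccagatcc

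Upstream of Pou5f1, 8485 bp from the start (chr17:35634220-35634775), lay the region with the third lowest ratio, 0.181. It scored 228 and 203 in WT_CTCF and 39 in each MUT_CTCF library. The regions with the lowest and the third lowest ratio both carried the common string, as did the region with the second lowest, in Nanog. On the downstream side, 12 of 21 flanking regions were called in all 4 libraries, and on the upstream side 7 of 11.

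Nanog encodes a homeodomain factor that supports self-renewal without LIF when raised. The gene (chr6:122657507-122664651, plus strand) held 6 regions, all in its body, within 7145 bp. Of these, 5 carried the common string and 1 was called in all 4 libraries. That region, in the last exon (chr6:122663482-122663953), scored 203 and 273 in WT_CTCF and 48 and 30 in MUT_CTCF, a ratio of 0.164. The region nearest the start, in an intron 1704 bp downstream (chr6:122658785-122659637), held the complete motif, ccctagtgCCAGCAGATGGCAtaattttc, on the plus strand besides the common string. It scored 113 and 177 in WT_CTCF and had no MUT_CTCF peak, with an authors' mean of 97.25.

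Around the Nanog gene body, 7 neighbouring regions in a row had no MUT_CTCF peak, over 11368 bp (chr6:122651834-122663201), and 4 of the 7 held a motif match. Of these 7, 5 were also missing from a WT_CTCF library and 2 were called in both. In all, 20 of the 37 Nanog regions (54.1%) had no MUT_CTCF peak, against 38.3% of all regions. Of these 20, 11 had been called in a single WT_CTCF library. The median authors' mean of the 37 was 65.75, against 95.25 over all regions. Sites called in all 4 libraries stood on both sides of the run of 7. The strongest, 37867 bp upstream (chr6:122619185-122620096), had an authors' mean of 1090 and scored 4326 and 4797 in WT_CTCF and 2325 and 2496 in MUT_CTCF, a ratio of 0.528. Downstream, a region at 12629 bp (chr6:122669779-122670494) scored 1833 and 1937 in WT_CTCF and 804 and 712 in MUT_CTCF. Slc2a3, which encodes a glucose transporter, occupies much of the downstream flank. A region over an exon of Slc2a3, 32637 bp from the Nanog start (chr6:122689836-122690453), held a complete plus-strand match, ctaaacgtCCAGTAGGTGGCAgcacagat, with scores of 841 and 826 in WT_CTCF and 488 and 429 in MUT_CTCF.

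Sox2 encodes the HMG-box partner of OCT4. The gene (chr3:34548927-34551383, plus strand) has a single exon inside the long non-coding RNA gene Sox2ot and had no other protein-coding gene within 100 kb. Both regions at the gene were called in all 4 libraries. The promoter region, 2052 bp upstream (chr3:34546485-34547266), held the complete motif shown above and scored 1106 and 1449 in WT_CTCF and 447 and 408 in MUT_CTCF, a ratio of 0.335. The region over the coding exon (chr3:34549437-34550251) had the highest authors' mean of the locus, 535.75, but scored 225 and 266 in WT_CTCF and 66 and 82 in MUT_CTCF.

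For its authors' mean, the score of the Sox2 exon region was unusually low. Among the 960 regions called in both WT_CTCF libraries with a mean within about 10% of it, the median WT_CTCF score was 1760.25, and 0 scored below its 245.5. The region held no motif match and its G+C content was 65.4%, beside a median of 45.6% over all regions. Scores low for the mean were also seen at regions of lower G+C content. For the Zfp42 region starting at chr8:44379539 (G+C 42.6%), 4 of 2640 regions of like mean scored lower. For that starting at chr8:44372100 (42.1%), 29 of 3433 did. The part of G+C content in this was not tested.

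The Sox2 sites called in all 4 libraries lay at the gene or on its upstream side. Of 5 upstream flanking regions, 4 were called in all 4 libraries, and of 4 downstream flanking regions 0 were. The downstream regions, between 38299 and 95493 bp from the start, scored at most 90 in WT_CTCF and had no MUT_CTCF peak. The enhancer cluster that drives Sox2 in embryonic stem cells is known to lie further downstream. Upstream, the region at 10611 bp (chr3:34537985-34538647) scored 1356 and 1602 in WT_CTCF and 902 and 656 in MUT_CTCF.

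Klf4 and Klf2 encode zinc finger factors with overlapping roles in naive pluripotency. Klf4 (chr4:55540013-55545347, minus strand) had the fewest regions, 5, with 0 on its upstream side and no other protein-coding gene within 100 kb. The only region without a MUT_CTCF peak was the one at the gene, over a coding exon 2126 bp downstream of the start (chr4:55543057-55543386). It scored 55 and 75 in WT_CTCF with an authors' mean of 149. As at the Sox2 exon, this score was low for its mean: of 3323 such regions with a mean within about 10% of it, the median was 404 and 2 scored lower. Its G+C content was 64.8% and its match, with 1 mismatch, was agcctcagCCGCCAGGTGGCGggctgatg on the minus strand.

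The 4 other Klf4 regions were called in all 4 libraries. The nearest, 17627 bp downstream (chr4:55527444-55527997), scored 547 and 548 in WT_CTCF and 97 and 106 in MUT_CTCF, a ratio of 0.185. The strongest, at 51933 bp (chr4:55493127-55493701), scored 620 and 602 in WT_CTCF and 385 and 273 in MUT_CTCF, a ratio of 0.538. Scores in WT_CTCF were close at these sites, and the MUT_CTCF scores set them apart.

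Klf2 (chr8:74842932-74845555, plus strand) had 0 regions in its body or promoter, unlike the other 9 genes. Its nearest region, 15364 bp downstream of the start (chr8:74858083-74858509), scored 57 in each WT_CTCF library and had no MUT_CTCF peak. The strongest, 57437 bp upstream (chr8:74784775-74786216), scored 993 and 1242 in WT_CTCF and 594 and 737 in MUT_CTCF. A region in a coding exon of Eps15l1, 63596 bp downstream (chr8:74906341-74906715), was 1 of the 2 whose groups overlapped. It scored 87 and 118 in WT_CTCF and 85 and 114 in MUT_CTCF, a ratio of 0.971, and held no motif match. A MUT_CTCF peak was missing in 4 of the 4 Klf2 regions with the common string, a number too small to set against the 47.5% of all such regions.

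Esrrb encodes an orphan nuclear receptor and Tfcp2l1 a Grainyhead-family factor, both of them targets of the signals that sustain naive cells. Esrrb (chr12:87702067-87862578, plus strand) spans 160512 bp and held 14 regions, all in introns. Of these, 3 were called in all 4 libraries. The region 41880 bp into the gene (chr12:87743609-87744285) held the complete motif, tctgtgcgCCACCAGAGGGCGcgctgggt, on the minus strand and scored 877 and 955 in WT_CTCF and 328 and 356 in MUT_CTCF. The strongest, at 147362 bp (chr12:87848814-87850045), scored 809 and 826 in WT_CTCF and 444 and 308 in MUT_CTCF. The nearest region to the start lay 16748 bp upstream (chr12:87685065-87685573) and scored 372 and 560 in WT_CTCF and 200 and 212 in MUT_CTCF.

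Of the 7 Esrrb regions with the common string, 5 were called in all 4 libraries and 1 had no MUT_CTCF peak. The copy in the strongest of these is printed above. Differences between loci in these counts were not tested.

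Tfcp2l1 (chr1:120524522-120581744, plus strand) had 2 regions at the gene. The promoter region, 202 bp upstream of the start (chr1:120524224-120524417), was called in WT_CTCF replicate 2 alone, with a score of 37. The intron region (chr1:120544453-120545041) scored 53 and 28 in WT_CTCF and had no MUT_CTCF peak. The 7 regions called in all 4 libraries lay outside, 3 upstream and 4 downstream. Among the latter, the region at 144572 bp (chr1:120668727-120669461) scored 1932 and 2645 in WT_CTCF and 1305 and 1197 in MUT_CTCF. The region at 131861 bp (chr1:120656022-120656744) held a complete minus-strand match, ttgtcttgCCAGCAGGTGGCAgtagatgg, and scored 2124 and 2252 in WT_CTCF and 819 and 769 in MUT_CTCF. These neighbours had similar WT_CTCF scores and ratios of 0.547 and 0.363.

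Prdm14 encodes a PR-domain protein that represses differentiation and DNA methyltransferase genes. Its body (chr1:13103538-13117244, minus strand) held 1 region, in an intron 9318 bp downstream of the start (chr1:13107750-13108103). This was the only 1 of the 91 with a ratio above 1, at 1.18, from scores of 90 and 57 in WT_CTCF and 66 and 107 in MUT_CTCF, and the groups overlapped. It held no motif match. In contrast, the region 7306 bp upstream (chr1:13124184-13124917) scored 1525 and 1488 in WT_CTCF and 331 and 386 in MUT_CTCF, a ratio of 0.238. The strongest region, 74901 bp downstream (chr1:13041997-13042689), scored 1545 and 1754 in WT_CTCF and 565 and 773 in MUT_CTCF. The latter pair had nearly the same WT_CTCF scores but ratios of 0.238 and 0.406.

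Zfp42 encodes REX1 and is switched off as cells leave the naive state. The gene (chr8:44380422-44392363, minus strand) had 4 regions, 0 of them called in all 4 libraries. The region in the intron 1172 bp downstream of the start (chr8:44390975-44391408) scored 302 and 288 in WT_CTCF and had no MUT_CTCF peak. The region over the start itself (chr8:44392109-44392516) was called in WT_CTCF replicate 2 alone, with a score of 30. These were part of the longest run of neighbouring regions without a MUT_CTCF peak around any of the 10 genes, 14 regions over 35451 bp (chr8:44371235-44406685). Runs were not counted elsewhere, so how common such a run is was not examined. Of the 14, 1 held a motif match, 7 were called in a single WT_CTCF library and 7 in both. In all, 16 of the 23 Zfp42 regions (69.6%) had no MUT_CTCF peak, against 38.3% of all regions. The median authors' mean of the 23 was 45.75, against 95.25 over all regions. The run included a region 1581 bp wide (chr8:44372100-44373680) with an authors' mean of 195.5 and scores of 189 and 190 in WT_CTCF, which held the common 12 bases but no match to the full motif.

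The run at Zfp42 ended on each side at sites called in all 4 libraries. On the upstream side, the region at 21919 bp (chr8:44413941-44414624) scored 1042 and 1142 in WT_CTCF and 467 and 426 in MUT_CTCF, and the region at 26713 bp (chr8:44418850-44419302) scored 1589 and 1772 in WT_CTCF and 415 and 553 in MUT_CTCF. On the downstream side, the region at 49227 bp (chr8:44342904-44343369) scored 230 and 378 in WT_CTCF and 50 and 85 in MUT_CTCF. The ratios of these 3 were 0.409, 0.288 and 0.222.

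Tbx3 encodes a T-box transcription factor that has later roles in limb and heart. The gene (chr5:120120678-120134733, plus strand) had 2 regions, each called in WT_CTCF replicate 2 alone. The region over the start (chr5:120120668-120120874) scored 42 there and the intron region (chr5:120129977-120130139) scored 25. The downstream side was dense instead, with 13 of 17 flanking regions called in all 4 libraries, against 1 of 6 upstream. The strongest, at 42365 bp (chr5:120162673-120163413), scored 1781 and 1816 in WT_CTCF and 657 and 818 in MUT_CTCF. The region at 76394 bp (chr5:120196591-120197553) had the third highest ratio of the 91, 0.825, from 560 and 534 in WT_CTCF and 488 and 415 in MUT_CTCF. It carried the common string, tgaagaggCCAGAAGAGGGCGtcgggtct, on the minus strand, so regions with the string stood near both ends of the range of ratios.

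Sites in a gene body or promoter were set beside sites in the flanks across the 10 genes. At the genes, 8 of 37 regions (21.6%) were called in all 4 libraries and 11 (29.7%) in both WT_CTCF libraries alone. In the flanks the numbers were 83 of 162 (51.2%) and 31 (19.1%). Esrrb gave 14 of the 37, and without it 5 of 23 (21.7%) were called in all 4. Regions that touch the body of any protein-coding gene, promoters left out, did not have this low share in the whole table, with 52.0% called in all 4. The low share was not particular to the 10 genes, however. In the further gene lists described below, genes with at least 5 such regions differed. Of these, Tet1 had 2 of 7 called in all 4 libraries, Tet2 0 of 5 and Fbxo15 1 of 5, but Nodal had 3 of 5 and Tcf7l1 6 of 12. These shares are descriptions over regions, which are not replicates.

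The regions at the genes also had a lower authors' mean, with a median of 46.5 against 93.9 in the flanks, and a motif match in 35.1% against 53.7%. If each of the 37 had the share called in all 4 that all regions in the same decile of the authors' mean have, 10.3 would be called in all 4, and 8 were. The same sum for calls in WT_CTCF alone gave 9.32, and 11 were seen. Over the 199 regions the sums were 95.7 and 37.2, and 91 and 42 were seen. The authors' mean of a region thus moved with its call pattern, and the separate part of its place in the gene was not tested.

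The regions of higher authors' mean were then read by percentile. Above the 75th percentile of the authors' mean, 218.25, 51 of 51 member regions were called in all 4 libraries, against 98.4% of all regions. Between the median, 95.25, and that percentile, 29 of 37 (78.4%) were, against 91.1%, and 4 (10.8%) had WT_CTCF calls alone, against 3.92%. These 4 were the Klf4 exon region, the Nanog intron region with the complete motif, the wide region downstream of Zfp42 and a region 9913 bp upstream of Tbx3 (chr5:120110539-120110991). The Tbx3 region scored 203 and 253 in WT_CTCF, with an authors' mean of 109.5.

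The direction of the motif gave the arrangement of the nearest sites on each side of a gene that were called in all 4 libraries and held a match. They faced each other across Pou5f1 and Tfcp2l1, the convergent arrangement of loop anchors. No other genes were counted for comparison. At Pou5f1 the left site lay 8206 bp from the gene on the plus strand and the right site 2361 bp from it on the minus strand. The right region held 2 matches, and its direction is that of the match with the fewest mismatches nearest the summit.
Pou5f1 left, chr17:35634220-35634775, plus strand: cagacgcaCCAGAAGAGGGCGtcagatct
Pou5f1 right, chr17:35650083-35651296, minus strand: ggcagaagCCAGAAGAGGGCActgggttc
Tfcp2l1 left, chr1:120460962-120461708, plus strand: cctacatgCCAGAAGAGGGCAtcagatcc
Tfcp2l1 right, chr1:120656022-120656744, minus strand: ttgtcttgCCAGCAGGTGGCAgtagatgg

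Both inner Pou5f1 sites carried the common string. Their scores differed, since the left site had the third lowest ratio, 0.181, and the right site, over the Tcf19 gene, scored 1018 and 1074 in WT_CTCF and 613 and 723 in MUT_CTCF, a ratio of 0.639. Around Esrrb the nearest sites pointed away from each other, and around Nanog, Prdm14, Zfp42 and Tbx3 they pointed the same way. Sox2, Klf4 and Klf2 had such a site on 1 side only within 100 kb. No contact data were used here, so whether any of these pairs form a loop was not examined.

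Other genes of the network, from lists made with earlier results of these data known, were counted the same way. Around 22 further naive or general pluripotency genes there were 272 regions, with 43.0% called in all 4 libraries and 22.8% in WT_CTCF alone, with a median score ratio of 0.416. Of these regions, 25 were also regions of Nanog, through its neighbour Dppa3, an oocyte and naive-state gene. Around 12 genes listed as formative and primed there were 140 regions, of which 52.1% and 22.1% had these patterns, with a median ratio of 0.468. A motif match was present in 59.9% and 67.1% of the regions of these lists, against 50.3% around the 10 naive factors. The MUT_CTCF-only pattern was absent from both lists.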

How the data were processed

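CTCF ChIP-seq with Drosophila spike-in chromatin was analysed in 2 WT_CTCF and 2 MUT_CTCF libraries, grouped by sample title. Per the submitters' processing notes, Trim Galore 0.4.4, Bowtie2 2.3.4.1, MACS2 2.1.1.20160309, DESeq2 1.38.0 and deepTools 3.1.1 were used. The authors aligned reads to mm9, removed multiply aligned reads and called peaks per library on tracks multiplied by spike-in factors. The deposited peak lists give a caller's score, whose definition is not given in the sources used here, and a summit offset in bp as another deposited signal. The deposited table gives, for each joined region, the authors' mean signal over the 4 libraries (counts scaled by spike-in factors). Its other columns hold the authors' own comparison (log2 fold change, standard error, statistic, p-value, adjusted p) and were not used. The number of unused per-sample columns was 0. Read depth is unknown, and intervals for counting error cannot be had.

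The 57662 regions were identical to the merged peaks of the 4 lists. A region counted as called in a library when at least 1 bp overlapped a peak, and the highest-scoring peak gave its score, width and summit. Genes came from GENCODE vM1 (9 matched by symbol, 1 by an older symbol), with promoters as 3000 bp upstream of the start. Library values were compared by exact permutation, 2 against 2. Named regions were, per gene, the one of highest authors' mean, the one nearest the start and those at the gene, besides the 3 lowest and 3 highest score ratios and any called in MUT_CTCF alone. The Nanog, Pou5f1, Klf4, Sox2, Tfcp2l1, Zfp42 and Tbx3 flanking regions described beside these were chosen after their values were seen. Members and lists were chosen with earlier results of these data known. Scripts were tested on simulated data. The tools were pysam 0.24.0, scipy 1.17.1, numpy 2.4.6, matplotlib 3.10.9 and pandas 2.3.3 under Python 3.11.15.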

Additional observations from a re-analysis of the deposited data

How the results depend on the processing

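Of 211 alternative values for 28 results, 167 were labelled the same and 44 moved, the latter all counts or shares. Every difference between genotypes was labelled the same because it kept its sign, however far its size moved, and some alternatives were in other units. The Prdm14 score difference, for example, went from -0.70 to -2.08 with a reciprocal overlap of 50%, which also left fewer regions. The difference in called regions went from -73.5 to -28 with peaks at or above the pooled median. Counts and shares cannot change sign. The number of regions called with WT_CTCF alone was 42, and it was 64 when peak and region had to overlap reciprocally by 50%, 18 with peaks scoring at or above the pooled median of 250, and 89 when a call in 1 replicate sufficed. Leaving out single libraries gave 50 to 75. The number called with MUT_CTCF alone was 0, and 1 when a call in 1 replicate sufficed, and 0 to 1 without single libraries. The number called in all 4 was 91, and it was 59 with the reciprocal overlap, 49 with the score minimum, 51 within 50 kb and 137 within 200 kb. The motif share of 50.3% was 7.54% without mismatch and 20.1% without the commonest match, an alternative chosen after seeing the data. The score difference was below 0 for 10 of 10 genes in the 8 alternatives run per gene, among them scores divided by the library median.

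The difference in called regions was -64.5 to -82.5 without single libraries, the log2 score difference -1.13 to -1.21 and the width difference -183.5 to -200.5 bp. With the replicate number as a block, these were -73.5, -1.15 and -192 bp, each with p = 0.5 by exact sign-flip, the lowest that 2 pairs allow. Deviations of same-numbered libraries correlated at 0.049 over member regions and -0.0033 over all regions, so pairing by number was not assumed. With 2 libraries per group, no test here could pass 0.05, and read depth is unknown. Calls and scores depend on the caller's threshold and are not amounts of bound CTCF. The cause of the changed counts was not tested.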
